A study of Mus musculus with 2 samples.

Results

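Shallow Aldoc-positive barcodes are droplets that hold few transcripts and carry astrocyte markers. They were chosen by their raw counts of unique molecular identifiers (UMIs, which count each captured transcript once). A member had at least 500 and fewer than 1500 UMIs, at most 30% mitochondrial UMIs, at least 4 UMIs of Aldoc, Aqp4 and Gja1 together, fewer than 3 of C1qa, C1qb and C1qc together and fewer than 2 of Cldn5. The E4 library gave 923 members of 13802 barcodes and the E3 library 860 of 11485, so 1783 of 25287 in all. They were set against 2685 deep E4 and 2206 deep E3 barcodes, which had 3000 to 10000 UMIs, at least 10 marker UMIs, fewer than 5 C1q UMIs and fewer than 3 of Cldn5, with no mitochondrial limit. No member barcode was shared by the libraries, although 46 barcode sequences occurred in both.

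The mice were female, 11 to 12 months old, and carried human APOE4 (E4) or human APOE3 (E3) knocked in at the mouse Apoe locus. For each genotype, right hemispheres of 3 mice, without brainstem and cerebellum, were pooled, dissociated with enzymes at 37 °C and freed of debris, and they made 1 droplet library. The counted genes are mouse genes, so the human allele was not read from these counts. With 1 library per genotype, E4 and the E4 library cannot be told apart, and animals within a pool were not separated.

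Astrocytes are the glial cells that take up glutamate, buffer ions and line blood vessels with their endfeet. Aldoc encodes aldolase C, a glycolytic enzyme typical of astrocytes, Aqp4 a water channel of the endfeet and Gja1 the gap junction protein connexin 43. Some RNAs stay in the nucleus, among them Malat1 and Xist (the RNA that coats the inactive X chromosome), while messenger RNAs are exported and some are carried into cell processes. Bc1 is a short non-coding RNA made by RNA polymerase III that is known from the dendrites of neurons, and Cxcl14 encodes a secreted chemokine.

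Bc1 is shown because it is one of the markers that name these barcodes. Its transcript has 168 bases and lies on mouse chromosome 7, 144914470 to 144914637, plus strand, GRCm38 (the assembly called mm10), where GENCODE vM21 lists it as a long intergenic non-coding RNA. The capitals mark the 30 bases richest in A, positions 77 to 106, of which 28 are A.
Bc1: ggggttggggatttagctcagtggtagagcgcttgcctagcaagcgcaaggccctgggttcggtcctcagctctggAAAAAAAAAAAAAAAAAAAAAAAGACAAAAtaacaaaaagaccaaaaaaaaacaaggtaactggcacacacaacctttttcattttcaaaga

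Members held few transcripts, and the summed share of astrocyte genes in them was above that of deep barcodes. Their median was 812 UMIs and 471 genes in E4 and 843 UMIs and 484.5 genes in E3, against 4452 UMIs and 1928 genes in deep E4 and 4599.5 UMIs and 1964 genes in deep E3. Mitochondrial UMIs made up a median of 18.7% in E4 members and 15.8% in E3 members, against 8.81% in deep E4 and 8.24% in deep E3. The 38 genes of the astrocyte list that the rule does not use summed to 80153 and 79648 counts per 1000000 UMIs (CPM) in E4 and E3 members, against 69624 and 70474 CPM in deep E4 and E3. Levels in CPM are set by the summed UMIs of a gate, and since 3′ tags are counted once per transcript they carry no correction for length. They are shares of 1 total, so a gene that takes less leaves more to others. Malat1 took a median of 14.5% and 13.0% of UMIs in deep E4 and E3, against 0.19% and 0.26% in E4 and E3 members. What this contributes to the higher astrocyte sum was not tested.

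The rule cut through a continuous range of depth. At its edges, 182 E4 and 171 E3 members had exactly 4 marker UMIs, while 154 E4 and 160 E3 barcodes met every other limit with 3. At the upper depth limit, 22 E4 and 24 E3 members lay within 50 UMIs below 1500, and 20 E4 and 16 E3 barcodes within 50 UMIs above it met all other limits. The lowest count in either file was 500 UMIs. Members made up 6.69% of the E4 library (exact binomial 95% interval 6.28 to 7.12%) and 7.49% of the E3 library (7.01 to 7.98%), intervals that overlap. These and all other intervals cover counting error only.

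Malat1 separated most members from most deep barcodes. It took a median of 0.19% of a member's UMIs in E4 and 0.26% in E3, against 14.5% in deep E4 and 13.0% in deep E3. It lay under 1% in 92.7% of E4 and 92.1% of E3 members, against 0.931% of deep E4 and 2.45% of deep E3 barcodes. A small fraction of members, 3.25% in E4 and 3.60% in E3, held 5% or more Malat1. Deep barcodes thinned to member depth and passed through the same gate kept a median of 14.3% in E4 and 13.0% in E3. Low shares also occurred in other shallow barcodes. Of those chosen by C1q genes, a marker set of microglia, 83.5% in E4 and 46.2% in E3 lay under 1%. Deep barcodes chosen by C1q genes did so in 1.22% (E4) and 0.912% (E3). Shallow barcodes with at least 2 Cldn5 UMIs did so in 48.2% (E4) and 45.8% (E3).

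**Figure D1:**
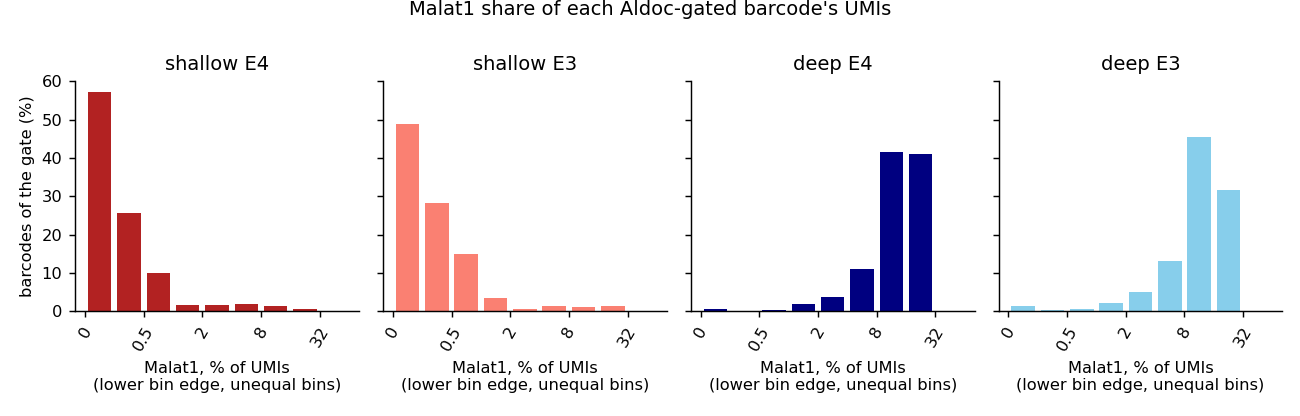
Share of each barcode's UMIs taken by Malat1 (x axis, percent, unequal bins) against the percent of the gate's barcodes (y axis), for members (shallow) and deep barcodes of E4 and E3. In the shallow panels 92.7% of E4 and 92.1% of E3 barcodes lie under 1%, while the deep panels peak above 8%.

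The shallow and deep barcodes were then compared gene by gene. UMIs were summed per gate and library and the 4 sums were fitted with edgeR's quasi-likelihood test, with library as a covariate. A gene was called at a Benjamini-Hochberg adjusted p under 0.05 and at least a 2-fold difference. Of 12800 genes tested, 305 were called higher in members (2.38%) and 1101 lower (8.6%), with a median log2 difference of -0.07 over all genes. At least 2-fold in each library separately were 185 of the higher and 995 of the lower genes. Of the 20 tested genes that the rule itself uses, 16 were called, and these are description only.

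The fit has 2 libraries, 1 residual degree of freedom and an infinite prior, so its p-values take 1 spread trend for all genes and no spread of the single gene. DESeq2 called 126 genes higher and 344 lower, and with both gates limited to at most 10% mitochondrial UMIs (58 E4 and 86 E3 members, against 1740 deep E4 and 1573 deep E3 barcodes) edgeR called 10 higher and 143 lower. Under that limit the difference was -1.89 for Malat1, -1.69 for Xist and 1.88 for Bc1, all called. Under it 4 of 16 nuclear long non-coding genes were called lower. Of 26 neuronal genes 1 was called higher and 1 lower, with a median of 0.14. None of the 12 microglia, 10 endothelial, 15 myelin, 16 immediate early or 6 ependymal genes tested under it was called. The medians under it were 1.11 for microglia, 0.70 for endothelial and 0.12 for immediate early genes. They were -0.06 for myelin and -0.28 for ependymal genes, against -0.43 over all genes tested under it. So few members leave little power, and the lack of a call does not show that a difference is absent. In single libraries Bc1 gave 2.22 in E4 and 1.62 in E3.

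Nuclear long non-coding RNAs were lower in members. Of 16 tested list members, 10 were called lower and 0 higher, with a median log2 difference of -2.06, and 11 of the 16 were lower in both libraries. Of all 12780 genes tested outside the rule, 1101 were called lower and 6531 were lower in both libraries. Malat1 stood at 8903 CPM in E4 members and 11386 CPM in E3 members, against 137827 CPM in deep E4 and 122568 CPM in deep E3 (log2 difference -3.51). Xist stood at 236 and 179 CPM in E4 and E3 members, against 2564 and 2069 CPM in deep E4 and E3 (log2 -3.30). Members of both libraries were below both deep sums for either gene.

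Other nuclear RNAs followed. Kcnq1ot1, an imprinted antisense RNA, had 36.2 and 22.2 CPM in E4 and E3 members, against 236 and 167 CPM in deep E4 and E3. Neat1, the scaffold of nuclear paraspeckles, had 27.5 and 44.4 CPM in E4 and E3 members, against 146 and 154 CPM in deep E4 and E3. Tsix, which overlaps Xist on the other strand, had 7.49 and 20.9 CPM in E4 and E3 members, against 129 and 135 CPM in deep E4 and E3. The 2 list members above their deep level in both libraries were Rian and Pantr1. Rian had 6.24 and 9.15 CPM in E4 and E3 members, against 3.97 and 5.88 CPM in deep E4 and E3, and was not called. Pantr1 stood at 534 and 532 CPM in E4 and E3 members, against 392 and 452 CPM in deep E4 and E3, a difference under 2-fold. The sources used here do not say whether counting used strand, so Xist and Tsix may share reads.

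The fall was not limited to the list. Of 840 long non-coding genes tested, 232 were called lower and 10 higher, with a median log2 difference of -1.04. Of 11933 protein-coding genes, 868 were called lower and 279 higher, with a median of -0.04. Protein-coding genes called lower had a median longest transcript of 4064 bases, against 2528 bases for those called higher and 3274 bases for all tested. Gene classes and lengths come from GENCODE vM21, which matched 32235 of the 32285 gene identifiers.

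The 12 lowest called genes with at least 200 UMIs over the 4 sums had 0 or 1 UMI in members. They passed that minimum through their deep UMIs, so their near absence from members follows from the choice and is description only. Fam228a, Mtcp1, 4930426I24Rik, Gm10862, Nsun7, Gm15520, 6030442K20Rik and Fbxl7 had 0 UMIs among 1566562 UMIs of members. Fam228a had 489 deep UMIs, which is at least 10.8-fold lower in members when 3 UMIs over both libraries are taken as the limit of a count of 0. Fbxl7 had 204 deep UMIs and was at least 4.49-fold lower. Lncpint, Gm9993, Gm36988 and 5330434G04Rik had 1 UMI each in members, against 799, 536, 422 and 371 in deep barcodes. For Lncpint the deep level was 52.7 times that of members, with a counting interval of 9.44 to 2085. In all, 109 of the genes called lower had 0 UMIs in both member sums. These passed the filter on low counts through the deep sums alone.

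**Figure D2:**
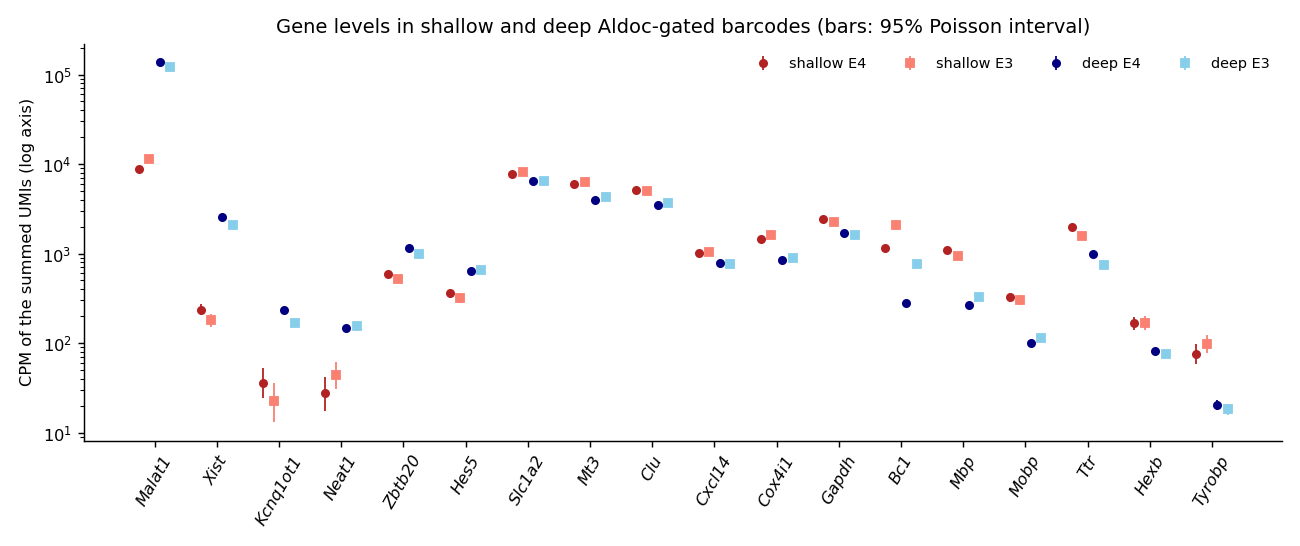
Levels of 18 genes in CPM of the summed UMIs (y axis, log scale) in members (shallow) and deep barcodes of E4 and E3, with 95% Poisson intervals. Malat1 and Xist lie far lower in the shallow sums, and Bc1, Mbp and Tyrobp higher.

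Most transcription factor messages had a smaller share in members, though few passed the 2-fold limit. Of 25 genes of astrocyte transcription factors, 23 were lower in both libraries, against 6531 of all 12780 genes tested outside the rule. Called were 3 lower, near the 8.6% of all genes, and 0 higher, and the median log2 difference was -0.53. The called genes were Hes1 (log2 -1.07), Tcf7l2 (-1.23) and Otx2 (-1.15). Zbtb20 had 584 and 521 CPM in E4 and E3 members, against 1151 and 997 CPM in deep E4 and E3 (log2 -0.78). Hes5, an effector of Notch signalling, had 358 and 322 CPM in E4 and E3 members, against 639 and 654 CPM in deep E4 and E3 (log2 -0.75). Neither of these reached 2-fold, and for each gene both member sums were below both deep sums.

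Few messages for secreted and membrane proteins differed by 2-fold. Among 21 secreted-protein genes 0 were called, with a median log2 difference of 0.37, and among 18 endfoot and membrane genes 1 was called lower (Dtna, log2 -1.65), with a median of 0.10, or -0.08 without TMM factors. Of these 18 genes, 8 were higher and 10 lower in both libraries. With at most 10% mitochondrial UMIs the medians were -0.18 for secreted, -0.60 for endfoot and membrane and -0.27 for astrocyte genes. Over all genes tested under that limit the median was -0.43. Slc1a2, the main glutamate transporter, had 7680 and 8076 CPM in E4 and E3 members, against 6517 and 6535 CPM in deep E4 and E3. Mt3, a metallothionein, had 5999 and 6268 CPM in E4 and E3 members, against 3970 and 4283 CPM in deep E4 and E3. Clu, which encodes clusterin, had 5118 and 5037 CPM in E4 and E3 members, against 3515 and 3692 CPM in deep E4 and E3. All 3 were higher in members in both libraries and under 2-fold, but with at most 10% mitochondrial UMIs Slc1a2 gave a log2 difference of -0.32.

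Within the astrocyte list of 38 genes outside the rule, S100b was called higher (log2 1.07) and F3, tissue factor, lower (log2 -1.06), and the median was 0.23. Slc1a3, the other glutamate transporter, differed by -0.05 on the log2 scale. It was chosen as an abundant list member and was not called.

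Of the rule's own markers, Aldoc stood at 5371 and 5230 CPM in E4 and E3 members, against 3040 and 2977 CPM in deep E4 and E3. Aqp4 stood at 1257 and 1062 CPM in E4 and E3 members, against 1204 and 1081 CPM in deep E4 and E3. Gja1 stood at 1619 and 1441 CPM in E4 and E3 members, against 2119 and 2000 CPM in deep E4 and E3. A minimum sum over 3 genes selected these levels, so they carry no test.

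Cxcl14 was in members at 1020 and 1044 CPM in E4 and E3, against 791 and 762 CPM in deep E4 and E3. The log2 difference was 0.59, and at under 2-fold it was not called. Both member sums were above both deep sums, and 3025 of all 12780 genes tested outside the rule were higher in both libraries. With at most 10% mitochondrial UMIs the log2 difference of Cxcl14 was -0.065 (edgeR adjusted p = 0.97), against a median of -0.43 over all genes tested. Thinned to 500 UMIs, 37.7% of E4 and 39.4% of E3 members had a Cxcl14 UMI, against 31.8% of deep E4 and 31.3% of deep E3 barcodes. Shallow barcodes chosen by C1q genes, a marker set of microglia, had one in 1.1% (E4) and 0.3% (E3) at the same depth. Without thinning the shares were 53.2% and 55.9% in E4 and E3 members, against 91.3% and 90.5% in deep E4 and E3.

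Genes of energy metabolism and translation had a larger share in members, mostly by less than 2-fold. Of all 12780 genes tested outside the rule, 3025 were higher in both libraries and 289 were called higher. Of 74 nuclear genes of the respiratory chain, 73 were higher in both libraries and 1 was called (Cox6a1, log2 1.04), with a median of 0.70. Of 81 ribosomal protein genes 80 were higher in both libraries and 3 were called, with a median of 0.79. Of 18 glycolysis genes outside the rule, 14 were higher in both libraries and 0 were called, with a median of 0.62. Cox4i1, a subunit of cytochrome c oxidase, had 1441 and 1593 CPM in E4 and E3 members, against 839 and 892 CPM in deep E4 and E3. Gapdh had 2456 and 2253 CPM in E4 and E3 members, against 1674 and 1597 CPM in deep E4 and E3.

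The 13 mitochondrially encoded genes summed to 186243 and 160896 CPM in E4 and E3 members, against 94705 and 91336 CPM in deep E4 and E3. The upper limit of 30% was part of the rule, so these sums are a description. The 3 entries known to collect reads of ribosomal RNA, Gm42418, Lars2 and AY036118, summed to 34880 and 68535 CPM in E4 and E3 members, against 15714 and 36672 CPM in deep E4 and E3, and each was called higher.

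**Figure D3:**
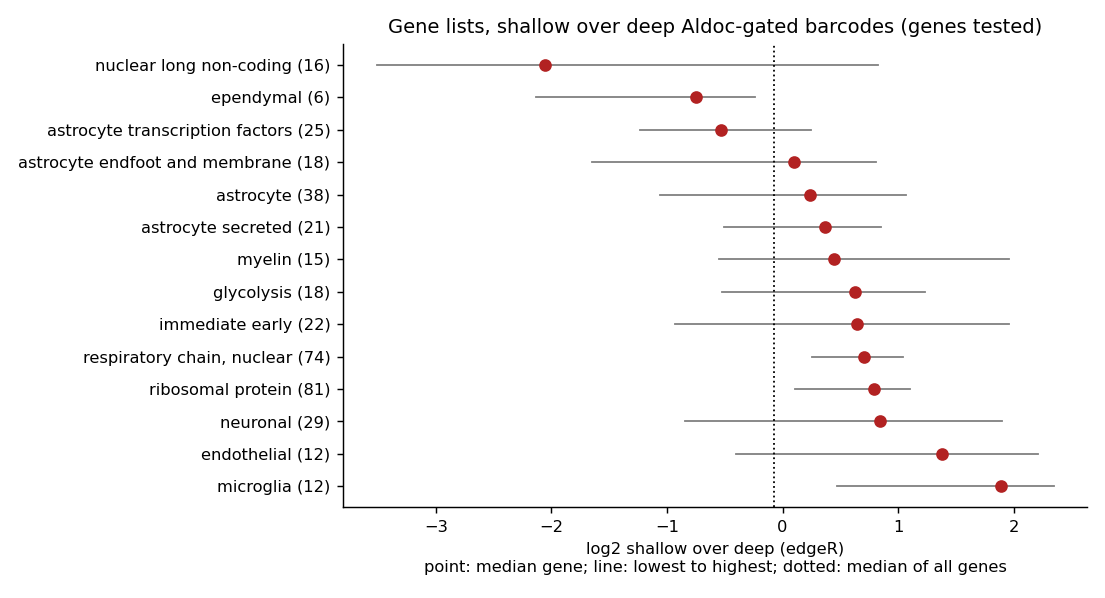
Log2 difference of members over deep barcodes (x axis) for 14 gene lists, with the median gene as a point, the lowest to highest gene as a line and the median of all genes dotted. The nuclear long non-coding list lies lowest, at a median of -2.06, and the microglia list highest, at 1.89.

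Transcripts known from several other cell types took a larger share in members. Bc1 had 1146 and 2083 CPM in E4 and E3 members, against 277 and 774 CPM in deep E4 and E3, with a log2 difference of 1.90. Both member sums of Bc1 were above both deep sums, and E3 was above E4 at both depths. Single barcodes did not carry the sum, since the 3 with most Bc1 held 3.59% of its UMIs in E4 members and 8.22% in E3 members. Thinned to 500 UMIs, 43.0% of E4 and 54.0% of E3 members had a Bc1 UMI, against 13.0% of deep E4 and 20.7% of deep E3 barcodes.

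Bc1 was also present in shallow barcodes of other markers, at 897 and 1011 CPM in E4 and E3 for the C1q gate and at 848 and 872 CPM in E4 and E3 for barcodes with at least 2 Cldn5 UMIs, an endothelial marker. At 500 UMIs it was seen in 33.2% and 38.2% of the C1q-gated shallow barcodes in E4 and E3. Its share among members was above these values in both libraries, with the wider gap in E3. The part of free RNA in Bc1 was not tested.

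Of all 12780 genes tested outside the rule, 289 were called higher and 1101 lower. Of 29 neuronal genes, 8 were called higher and 0 lower, with a median of 0.84. Bc1 was the most abundant of them in members, while the synaptic vesicle gene Snap25 reached 27.5 and 36.6 CPM in E4 and E3 members, against 11.8 and 14.0 CPM in deep E4 and E3. Of 15 myelin genes 2 were called higher and 0 lower, with a median of 0.45. In both libraries 9 of them were higher and 5 lower. Mbp, myelin basic protein, had 1082 and 945 CPM in E4 and E3 members, against 267 and 325 CPM in deep E4 and E3 (log2 1.96). Mobp, of the same sheath, had 323 and 305 CPM in E4 and E3 members, against 98.8 and 115 CPM in deep E4 and E3.

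Leaving out barcodes with 3 or more UMIs of a set of myelin genes at both depths made the difference of Bc1 2.27. With deep barcodes thinned and passed through the shallow gate, 12 of 15 myelin genes were called higher, as were 295 of all 9190 genes tested.

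The 12 highest called genes with at least 200 UMIs were Gpr34, Fcrls, Tyrobp, Laptm5, Rgs10, Ly6a, Tmem119, Bcas1, Selplg, Rgs5, Fcer1g and Flt1. Most are known from microglia, Ly6a and Flt1 from endothelial cells, Rgs5 from pericytes and Bcas1 from oligodendrocytes. Tyrobp, a signalling adaptor of microglia, had 76.1 and 98.0 CPM in E4 and E3 members, against 20.5 and 18.1 CPM in deep E4 and E3 (log2 2.35). Gpr34, a microglial receptor, had 37.4 and 70.6 CPM in E4 and E3 members, against 8.95 and 8.91 CPM in deep E4 and E3 (log2 2.75).

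The C1q and Cldn5 limits are numbers of UMIs and so allow a larger share at low depth. What they contribute to the microglial and endothelial differences was not tested. Of 12 microglia genes outside the rule, 10 were called higher, against 289 of all 12780 genes tested outside it. With deep barcodes thinned and passed through the shallow gate, 10 of 12 microglia and 6 of 9 endothelial genes were called higher. The deep barcodes had passed their own C1q and Cldn5 limits before thinning, so this comparison cannot remove what those limits contribute. The 15 listed microglia genes summed to 1708 and 1722 CPM in E4 and E3 members, against 748 and 714 CPM in deep E4 and E3, and none was at 0. Of 12 endothelial genes 6 were called higher, with a summed level of 1099 and 1022 CPM in E4 and E3 members, against 794 and 715 CPM in deep E4 and E3. Ttr, the transthyretin of the choroid plexus, had 1994 and 1562 CPM in E4 and E3 members, against 978 and 741 CPM in deep E4 and E3. Of 6 genes of ependymal cells, 2 were called lower (1 by DESeq2) and 0 higher, with a median of -0.75, while against thinned deep barcodes 3 could be tested, 0 were called and the median was 0.91. Of 5 genes of oligodendrocyte precursors 1 was called lower (Vcan, log2 -1.06). Of all 12780 genes tested outside the rule, 1101 were called lower. What these transcripts contribute to the other differences was not tested. Immediate early genes, which respond fast to stimulation and to dissociation, were called higher in 6 of 22 cases, among them Junb (log2 1.96) and Egr1 (log2 1.62).

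By depth, Malat1 ran opposite to Aldoc and Bc1. Members were split into 4 classes of 250 UMIs from 500 upwards, followed by barcodes from 1500 up to 3000 UMIs (at least 6 marker UMIs) and by the deep barcodes. From shallow to deep, Malat1 stood at 3742, 4533, 11031, 21094, 115051 and 137827 CPM in E4. The E3 values over the same classes were 4513, 6619, 7771, 30497, 113125 and 122568 CPM. The largest step in CPM lay at 1500 UMIs in both libraries, which is also where the marker minimum changes. Aldoc stood at 6151, 5579, 4817, 4507, 2977 and 3040 CPM in E4, and at 6128, 5427, 4925, 4162, 2969 and 2977 CPM in E3. A fixed minimum of marker UMIs weighs more on shallow barcodes, and Aldoc is one of its genes. Bc1 stood at 1423, 1128, 1112, 781, 475 and 277 CPM in E4, and at 2182, 1875, 1954, 2386, 1189 and 774 CPM in E3. Its level fell with each deeper class in E4 but not in E3, where the deepest class of members was highest.

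**Figure D4:**
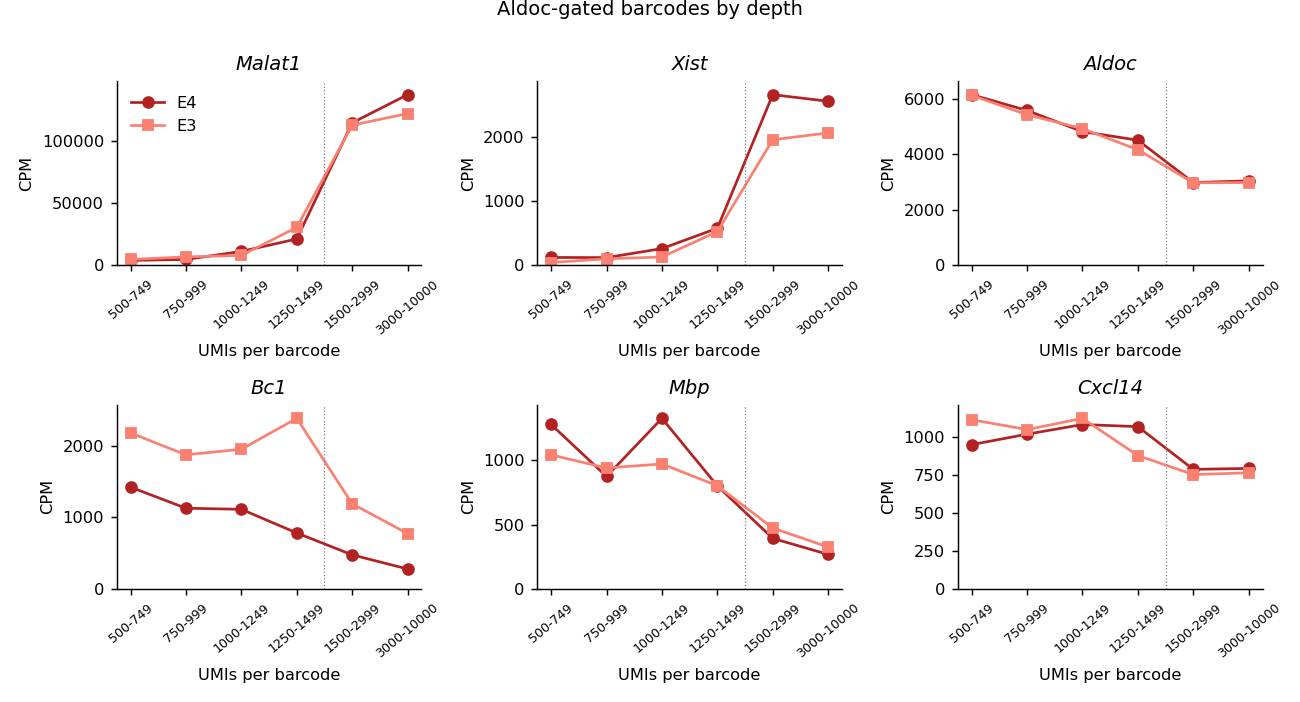
Levels in CPM (y axis) of 6 genes in Aldoc-gated barcodes by UMIs per barcode (x axis), for E4 and E3, with the dotted line at the upper limit of members. Malat1 and Xist rise beyond the line, and Aldoc, Bc1 and Mbp are higher before it.

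Whether this contrast differed from that of other shallow barcodes was tested with the C1q gate, which held 370 shallow and 3348 deep E4 barcodes and 340 shallow and 2411 deep E3 barcodes. One edgeR fit of 8 sums with an interaction term tested 13926 genes and called 424 higher (3.04%) and 197 lower (1.41%) for Aldoc relative to C1q. The direction of the split depends on the scaling, since DESeq2 called 197 higher and 424 lower and edgeR without TMM factors 185 and 201. Of these calls, 185 higher and 187 lower were shared by edgeR and DESeq2, and 0 genes were called in opposite directions. The median over all genes was 0.31 by edgeR and -0.08 by DESeq2.

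For Malat1 the log2 difference of the Aldoc gate minus that of the C1q gate was -3.36 (edgeR adjusted p = 9.9e-06), and -3.66 by DESeq2. In shallow C1q barcodes it stood at 13978 CPM in E4 and 49249 CPM in E3, against 32149 and 32100 CPM in deep E4 and E3, so that the libraries went opposite ways there. The median share per shallow C1q barcode was 0.18% in E4 and 2.93% in E3, against 3.15% in deep E4 and 3.15% in deep E3. Bc1 did not pass the test of the difference (log2 -0.21, edgeR adjusted p = 0.80), and was higher in shallow than in deep C1q barcodes as well. The 5 lowest genes of this test with at least 500 UMIs were Emp3, Pde10a, Lncpint, Gm9993 and Grin2b. Pde10a, a phosphodiesterase, had 2.50 and 10.5 CPM in E4 and E3 members, against 64.7 and 82.3 CPM in deep E4 and E3. The 5 highest were Mast2, Zfp317, Tmub1, Rab27a and Arl11. The first 3 of these had 0 UMIs in the 653996 UMIs of the shallow C1q barcodes, which allows up to 4.59 CPM, and Rab27a and Arl11 had 3 and 5 UMIs in members. The 5 lowest and 5 highest genes passed the minimum of 500 UMIs through the sums where they are high, so they are description only.

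E4 was then set beside E3 within the members. With 1 library each no test was possible, and genes are named by size, at least 1.5-fold with at least 100 UMIs. Of 2220 genes, 37 were higher in E4 (1.67%) and 18 lower (0.811%). The exact binomial interval of the ratio lay beyond 0 on the log2 scale for 37 and 17 of them. The limits on size and UMIs that chose these genes nearly fix that outcome, so it is description only. In deep barcodes 23 and 14 lay on the same side, and the share of all 2220 genes that did so was not counted. The median over all genes was 0.02.

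The lowest ratios belonged to Lars2, Gm42418 and Bc1 among others. Lars2 had 1290 CPM in E4 members and 3097 CPM in E3 members (log2 ratio -1.26), and -1.41 in deep barcodes. Gm42418 had 32536 CPM in E4 members and 63682 CPM in E3 members (log2 -0.97), and -1.22 in deep barcodes. Bc1 gave -0.86 in members (interval -0.98 to -0.74) and -1.48 in deep barcodes. All 3 ratios lay on the same side at both depths. The others were Rnaset2a (-0.89), Nmt1 (-0.85), Dkk3 (-0.76), Smim8 (-0.75) and Hist1h1e (-0.74).

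The highest ratios were 0.97 for Mrps12, a mitochondrial ribosomal protein, 0.95 for Atad1, 0.91 for Pcdh9, a protocadherin, 0.83 for Sdhd, a subunit of succinate dehydrogenase, 0.83 for Maob, monoamine oxidase B, and 0.82 for Zfand6. In deep barcodes Mrps12 gave 0.50, Atad1 0.11, Pcdh9 0.13, Sdhd 0.17, Maob -0.21 and Zfand6 0.12. The 2 haemoglobin genes Hba-a2 and Hba-a1, near-identical copies whose reads may be split, gave 0.95 and 0.93 in members, against -1.47 and -1.53 in deep barcodes. A few barcodes held most of these UMIs in E4 members and in both deep sums, but not in E3 members. The 3 highest barcodes held 85.2% of 1073 haemoglobin UMIs in E4 members and 19.8% of 636 in E3 members. They held 90.3% of 3908 in deep E4 and 76.6% of 8212 in deep E3. Without barcodes of 10 or more haemoglobin UMIs, a limit chosen after these values were seen, the ratios in members were -2.96 and -2.88.

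**Figure D5:**
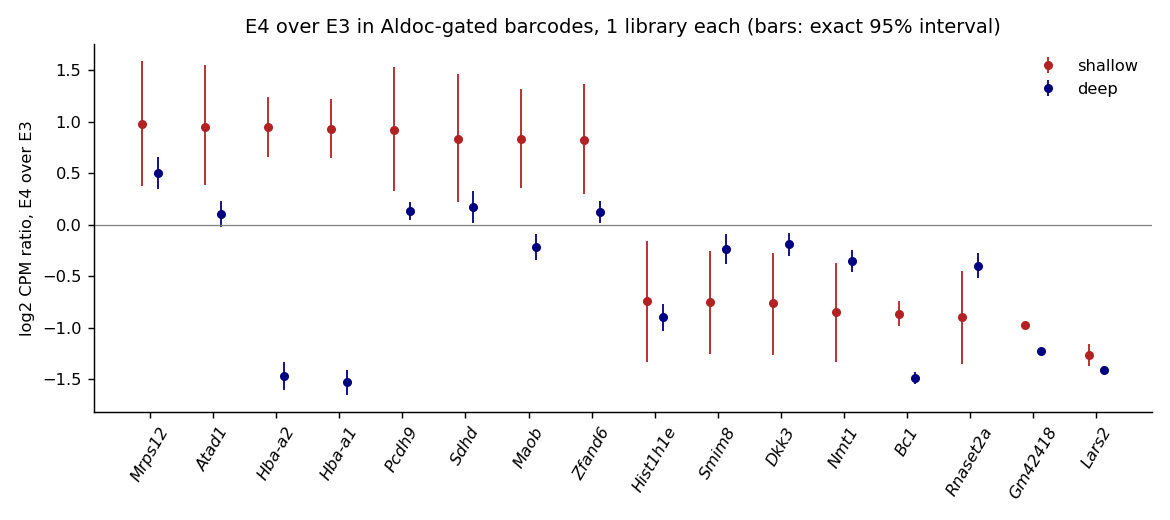
Log2 ratio of CPM, E4 over E3 (y axis), of the 8 highest and 8 lowest genes in members (shallow, left) and in deep barcodes (right of each pair), with exact 95% intervals. Hba-a1 and Hba-a2 lie above 0 in the shallow barcodes and below it in the deep ones, and Lars2, Gm42418 and Bc1 lie below 0 in both.

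Metabolic lists had median ratios between -0.10 and 0.21 in members. Of all 2220 genes 1183 were above 0, with a median log2 ratio of 0.02 in members and -0.01 in deep barcodes. Of 74 respiratory chain genes 16 were above 0, with a median log2 ratio of -0.10 in members and -0.12 in deep barcodes. Of 80 ribosomal protein genes 23 were above 0, with a median of -0.07 in members and -0.13 in deep barcodes. Of 15 glycolysis genes 11 were above 0, with a median of 0.04 in members and 0.02 in deep barcodes. Of 13 mitochondrially encoded genes 12 were above 0, with a median of 0.21 in members and 0.02 in deep barcodes. Aldoc gave 0.04 and Cxcl14 -0.03 in members, against 0.03 and 0.05 in deep barcodes. The mitochondrially encoded genes and Aldoc belong to the rule, so their ratios are description only.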

How the data were processed

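The authors deposited raw UMI counts per gene and barcode, made with Cell Ranger 6.1.2 (E3) and 6.1.1 (E4) on mm10, per the file headers and the submitters' processing notes, with no normalization. Depth was 71625170 UMIs in 13802 E4 barcodes and 56415229 in 11485 E3 barcodes. Gates were applied to raw counts in Python 3.11.15, with no clustering and no doublet calls. Sums per gate and library were filtered with filterByExpr, scaled with TMM and fitted with edgeR 4.0.16 in R 4.3.3, with DESeq2 1.42.0 as an alternative. The fit was tested on simulated data. CPM, log2 ratios and exact binomial or Poisson intervals at 95% were computed with scipy 1.17.1. Thinning drew 500 UMIs per barcode at random. Deep barcodes were also thinned to the depth of members and passed through the same gate. The alternatives tried were DESeq2, no TMM factors, no filter on low counts, no library term, each library alone, other totals, and other limits on markers, UMIs, mitochondrial share, myelin and haemoglobin transcripts.

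Named genes were Aldoc, Bc1 and Cxcl14, the genes of the rule, the 12 highest and 12 lowest called genes with at least 200 UMIs, the 5 highest and 5 lowest of the interaction, the 8 highest and 8 lowest ratios of E4 over E3, and up to 6 abundant members of each list. Called list members outside this rule (such as Tsix, Hes1, Tcf7l2, Otx2, Dtna, S100b, F3, Cox6a1, Snap25, Junb and Egr1) and Rian were chosen after their values were seen. Members and lists were chosen with earlier results of these data known. The 2 libraries are separate pools, and p-values measure only the spread between them. Some list members and their values are not reported here.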

Additional observations from a re-analysis of the deposited data

Results flagged for a closer look

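The contrast of shallow and deep barcodes differed between the Aldoc and the C1q gate by the interaction test. The log2 differences were -3.36 for Malat1, -8.80 for Emp3, -5.43 for Pde10a, -5.18 for Lncpint, -5.02 for Gm9993 and -5.00 for Grin2b. They were 9.64 for Mast2, 9.58 for Zfp317, 9.33 for Tmub1, 6.12 for Rab27a and 5.69 for Arl11. Emp3 had 0 UMIs in members, and Mast2, Zfp317 and Tmub1 had 0 in shallow C1q barcodes, so these fitted values depend on the prior count and are no measure of size.

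Of the genes at least 1.5-fold apart, 14 of the 37 higher and 4 of the 18 lower in E4 members lay on the other side in deep barcodes, a difference that was not tested. Among the 16 named genes these were 3. The log2 ratios were 0.95 in members and -1.47 in deep barcodes for Hba-a2, 0.93 and -1.53 for Hba-a1, and 0.83 and -0.21 for Maob. The haemoglobin ratios rest on a few barcodes in E4 members and in both deep sums.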

How the results depend on the processing

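Over 56 genes named with values of members against deep barcodes, 599 values under other settings kept their direction and their side of the threshold, 63 lost the call and 4 gained it. With at most 10% mitochondrial UMIs at both depths 3 genes turned direction, Cxcl14 to -0.065, Slc1a2 to -0.32 and Rian, with 0 UMIs in members, to -6.90, a fitted value that depends on the prior count, and none of these was called in either setting. Genes called higher in members numbered 126 with DESeq2, 192 without the filter on low counts, 145 with at least 6 marker UMIs, 199 from 750 UMIs and 10 with at most 10% mitochondrial UMIs. Genes called lower numbered 344 with DESeq2 and 143 with at most 10% mitochondrial UMIs. Under that mitochondrial limit the median of all genes was -0.43. From 1 library alone, without a test, 641 to 664 genes were at least 2-fold higher and 2172 to 2247 lower, more than with both since no test applies. Without TMM factors the median of all genes was -0.25 rather than -0.07, and 386 genes differed from the C1q gate rather than 621. The cause of the other shifts was not tested.

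For E4 over E3, genes at least 1.5-fold higher numbered 18 with at least 6 marker UMIs, 6 with at most 10% mitochondrial UMIs, 185 from 50 UMIs and 18 with members thinned to 500 UMIs. Genes lower numbered 112 from 50 UMIs and 11 after thinning. Without haemoglobin-rich barcodes, added after seeing the data, Hba-a2 gave -2.96 and Hba-a1 -2.88. Members made up 4.15% of the E4 and 4.46% of the E3 library with at least 6 marker UMIs, 3.94% and 4.66% from 750 UMIs, 0.42% and 0.75% with at most 10% mitochondrial UMIs, and 5.28% and 6.104% without myelin-holding barcodes. Depth limits the members: their sums hold 801293 UMIs in E4 and 765269 in E3, against 12848468 and 10889628 in deep E4 and E3, so genes of a few CPM rest on single UMIs.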
